A study of Mus musculus with 6 samples.

Results

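Genes of the PI3K, AKT and mTOR pathway were followed in the mRNA-seq data of NSrp70-deficient thymocytes. The 9 genes *Pik3cd*, *Pik3r1*, *Inpp5d*, *Akt1*, *Akt2*, *Mtor*, *Rptor*, *Tsc1* and *Tsc2* were chosen by symbol, and all 9 were found among the 23183 gene symbols of the deposited values. The libraries came from sorted double positive (DP) thymocytes, the immature T cells that carry both CD4 and CD8, of C57BL/6 mice at 6 weeks of age. The WT group (NSRP1f/f, 3 libraries) carries the floxed *Nsrp1* alleles without Cre. The NSrp70-cKO group (NSRP1f/fCD4Cre, 3 libraries) carries the same floxed alleles and a Cre transgene under CD4 enhancer and promoter elements, which is active from the late double negative stage onwards, so that *Nsrp1*, which encodes the splicing factor NSrp70, is deleted in the T lineage. The sources do not say whether the 3 libraries of a genotype came from separate mice, and all p-values therefore measure the spread between these libraries, which may be technical.

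All values are FPKM, or fragments for each kilobase of a transcript, scaled by the number of mapped fragments, which can be compared between genes because they are given per length. From the steps of 1 fragment at low values, the depth was estimated as 20.7 to 20.8 M fragments (M, mega) in the WT and 13.1 to 20.6 M in the cKO libraries, and the 9 genes rested on an estimated 515 to 5432 fragments per library. *Nsrp1*, listed as *Ccdc55*, had an FPKM of 20.2, 20.7 and 21.1 in WT and of 17.7, 15.8 and 15.0 in cKO, values that sum over the whole gene and not over the deleted part alone. The 8 markers of DP cells were detected in every library, with *Cd4*, *Cd8a*, *Cd8b1*, *Rag1* and *Rag2* higher and *Cd3e* lower in every cKO than in every WT library. Of 5 markers of mature single positive cells, *Ccr7*, *S1pr1*, *Klf2* and *Il7r* were lower in all cKO libraries, and the 4 erythroid markers summed to 1.98 to 2.91 FPKM in WT and 15.1 to 31.1 in cKO. The summed markers of B cells (22.6 to 24.0 in WT, 26.6 to 39.4 in cKO) came almost wholly from *Cd79b*, and those of myeloid cells (3.95 to 5.03) and thymic epithelium (1.92 to 3.98, with *Foxn1* at 0) were low. Of the markers of double negative cells, *Il2ra* was at 4.54 to 4.96 in WT and 2.75 to 3.88 in cKO, and *Kit* was at most 0.857. The part of these cell types in the results below was not tested. *Ddx3y* and 3 other genes of chromosome Y had 0 FPKM listed for each WT library and averaged 7.23 to 36.2 FPKM in cKO, and *Xist* was at 69.8 to 72.0 in WT and 4.07 to 5.44 in cKO, so sex and genotype cannot be told apart. The variance between WT libraries was 1.46 to 1.59 times that of counting alone, and between cKO libraries 33.1 to 75.4 times, and the tests were therefore repeated with WT taken as 1 sample, the mean of its 3 libraries, which is then assumed to vary as the cKO libraries do.

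Phosphoinositide 3-kinase (PI3K) adds a phosphate to a membrane lipid after a receptor is engaged, and the lipid recruits the kinase AKT, which is then activated at the membrane. AKT in turn inhibits the TSC complex, a brake on the small GTPase RHEB, so that the kinase mTOR in its complex with raptor (mTORC1) is released to promote protein synthesis and cell growth. In thymocytes this pathway is known to work downstream of the pre-TCR and the TCR, and lipid phosphatases such as SHIP-1 oppose it.

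All 9 genes were lower in NSrp70-cKO DP thymocytes. In bulk samples, fewer cells of a type and less RNA per cell cannot be told apart. The change in mean FPKM was -46.0% for *Pik3cd*, -40.3% for *Pik3r1*, -40.1% for *Tsc2*, -33.4% for *Rptor*, -26.9% for *Akt1*, -26.0% for *Tsc1*, -24.5% for *Mtor*, -22.3% for *Inpp5d* and -19.2% for *Akt2*. In each of the 9, every cKO library lay below every WT library, which held for 33.3% of the 10326 genes tested. In limma's test on log2(FPKM + 1), all 9 were lower at a Benjamini-Hochberg adjusted p under 0.05. Of all genes tested, 65.5% passed in either direction and 29.8% were lower. The median log2 fold change was -0.45 for the 9 genes and 0.039 for all genes, and single log2 fold changes are given with their standard error as ±. With WT taken as 1 sample, 2 of the 9 remained past the threshold, *Pik3cd* (adjusted p = 0.0336) and *Tsc2* (adjusted p = 0.0476), beside 8.73% of all genes called lower and 15.9% called in all. When the GC content and the length of the transcripts were adjusted for, 3 of the 9 remained, *Pik3r1*, *Pik3cd* and *Tsc2*, beside 26.7% of all genes called lower. *Pik3cd* and *Tsc2* were thus the 2 genes that passed under both treatments.

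**Figure D1:**
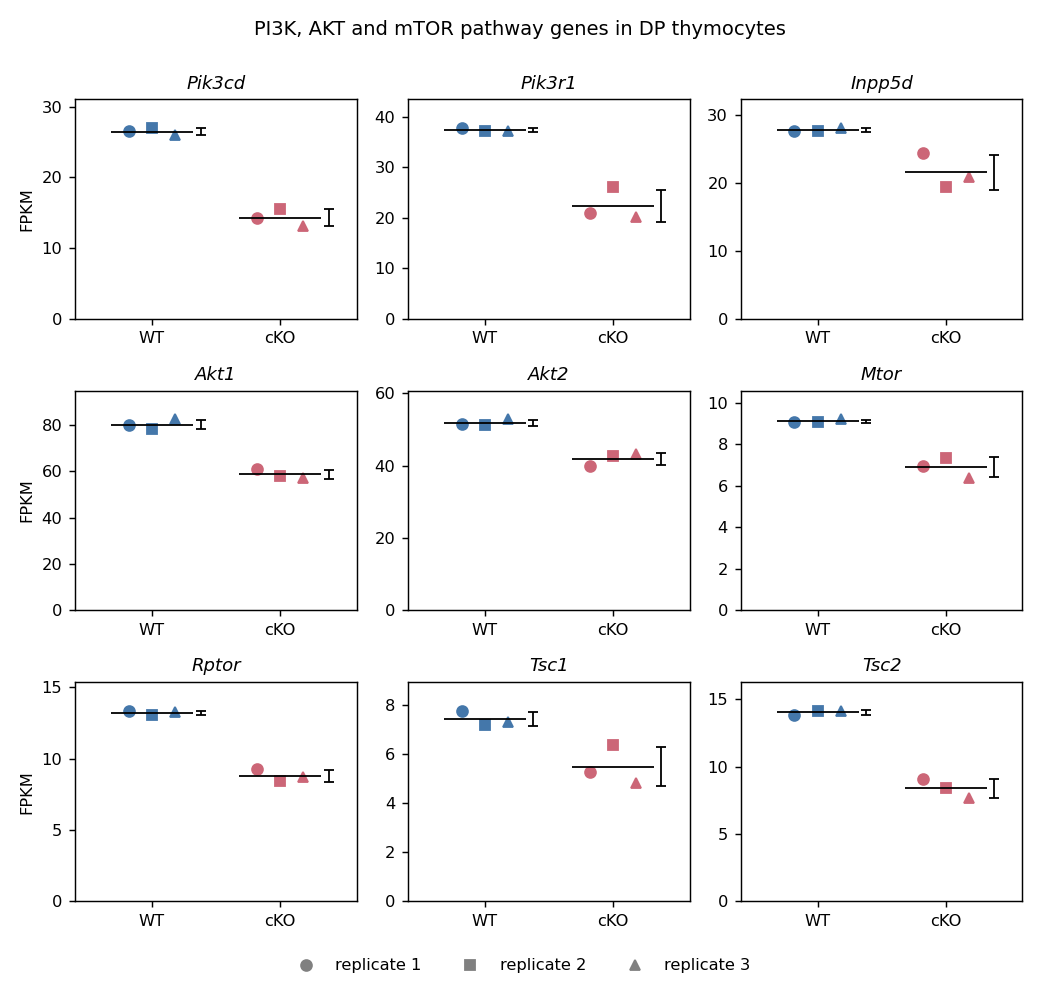
FPKM of the 9 genes in each library (points, with the marker giving the replicate number), with the mean (line) and SD (error bar) of the 3 WT and the 3 cKO libraries; each vertical axis starts at 0 and has its own range. In every panel the 3 cKO points lie below the 3 WT points, with the largest relative difference in means for *Pik3cd*, 26.5 in WT and 14.3 in cKO.

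At the top of the pathway, *Pik3cd* encodes p110δ, the catalytic subunit of the leukocyte class I PI3K (chromosome 4, 149649168 to 149702571 of GRCm38, the assembly of mm10, minus strand). It had an FPKM of 26.5, 27.0 and 25.9 in WT and of 14.2, 15.6 and 13.1 in cKO. The WT values were within 4.01% of each other, and the highest cKO value was well under the lowest WT value. In log2 terms the change was -0.85 ± 0.074 (adjusted p = 0.000188), lower than that of all but 7.50% of the genes tested. With GC and length adjusted for it was -0.28 (adjusted p = 0.0124). By their 6 centred log2 values, the 3 genes nearest to *Pik3cd* were *Brd1*, *Ap1g2* and *Anks1*, at Euclidean distances of 0.038, 0.043 and 0.059.

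*Pik3r1* encodes p85α and its shorter forms, regulatory subunits that stabilise p110 and hold it inactive until they bind phosphorylated receptors or adaptors (chromosome 13, 101680563 to 101768217, minus strand). Its FPKM was 37.8, 37.3 and 37.2 in WT and 20.9, 26.1 and 20.1 in cKO. The cKO libraries were spread over 29.9%, with replicate 2 the highest, but stayed under the WT range. In log2 terms the change was -0.73 ± 0.098 (adjusted p = 0.000791). Of the 9 genes it was the one whose change moved least when GC and length were adjusted for, to -0.67 (adjusted p = 0.00127). With WT taken as 1 sample its adjusted p was 0.0511, just outside the threshold. Since 1 value covers a gene with all its isoforms, p85α and its shorter forms were not separated here.

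*Inpp5d* encodes SHIP-1, the blood cell phosphatase that removes the 5-phosphate from the lipid made by PI3K (chromosome 1, 87620312 to 87720507, plus strand). It had an FPKM of 27.7, 27.5 and 28.0 in WT and of 24.4, 19.4 and 20.9 in cKO, with cKO replicate 1 the nearest to the WT range. In log2 terms the change was -0.36 ± 0.092 (adjusted p = 0.0117). It was -0.050 with GC and length adjusted for (adjusted p = 0.604), and the adjusted p was 0.199 with WT taken as 1 sample.

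The AKT kinases were the most highly expressed of the 9 genes. *Akt1* (chromosome 12, 112653821 to 112674884, minus strand) had an FPKM of 79.8, 78.4 and 82.4 in WT and of 61.0, 57.9 and 57.2 in cKO. *Akt2* (chromosome 7, 27591552 to 27640826, plus strand), the form best known for its part in insulin-stimulated glucose uptake, had an FPKM of 51.4, 51.2 and 52.8 in WT and of 39.9, 42.6 and 43.2 in cKO. The 2 genes had the narrowest spread among the cKO libraries, 6.57% for *Akt1* and 8.26% for *Akt2*. Their log2 fold changes were -0.45 (± 0.063, adjusted p = 0.000946) and -0.30 (± 0.061, adjusted p = 0.00401). With GC and length adjusted for the signs turned, to 0.038 for *Akt1* (adjusted p = 0.594) and 0.12 for *Akt2* (adjusted p = 0.158).

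*Mtor* encodes the kinase shared by both mTOR complexes, and *Rptor* encodes raptor, the scaffold that brings substrates to mTORC1. *Mtor* (chromosome 4, 148448611 to 148557683, plus strand) had an FPKM of 9.07, 9.10 and 9.21 in WT and of 6.98, 7.33 and 6.37 in cKO. *Rptor* (chromosome 11, 119602905 to 119899576, plus strand) had 13.3, 13.0 and 13.2 in WT and 9.26, 8.42 and 8.71 in cKO. In both genes the WT libraries were within 2.28% of each other and the cKO libraries lay apart from them. The log2 fold changes were -0.36 for *Mtor* (± 0.071, adjusted p = 0.00357) and -0.54 for *Rptor* (± 0.066, adjusted p = 0.000557). With GC and length adjusted for both signs turned, to 0.12 (adjusted p = 0.188) and 0.077 (adjusted p = 0.318). *Rptor* shares 84 exon bases, 0.62% of its exon length, with the antisense gene *Rptoros*.

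*Tsc1* and *Tsc2* encode hamartin and tuberin, the core of the TSC complex, in which tuberin is the part that switches RHEB off. *Tsc1* (chromosome 2, 28641228 to 28691167, plus strand) had the lowest level of the 9 genes, with an FPKM of 7.75, 7.20 and 7.29 in WT and of 5.25, 6.38 and 4.83 in cKO. *Tsc2* (chromosome 17, 24595816 to 24632630, minus strand) had an FPKM of 13.8, 14.1 and 14.1 in WT and of 9.10, 8.43 and 7.67 in cKO. *Tsc1* varied most of the 9 genes among the cKO libraries, over 32.1%, with replicate 2 closest to the WT range. The log2 fold change of *Tsc1* was -0.38 (± 0.098, adjusted p = 0.0115), and the adjusted p was 0.0504 without WT replicate 1. That of *Tsc2* was -0.68 (± 0.076, adjusted p = 0.000407). Adjusting for GC and length brought *Tsc1* to -0.098 (adjusted p = 0.443) and *Tsc2* to -0.21 (adjusted p = 0.0189). *Tsc2* shares 693 exon bases, 7.20% of its exon length, with *Pkd1* on the opposite strand, which averaged 7.68 FPKM in WT and 3.49 ± 0.262 (SD, n = 3) in cKO. Since the strand setting of the authors' counting is not stated, reads there cannot be assigned to 1 of the 2 genes. The 3 genes with the profile nearest to *Tsc2* were *Sec16a*, *Ep400* and *Fryl*, at distances of 0.043, 0.050 and 0.064.

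RefSeq lists a single start for 5 of the 9 genes. Of these, 4 encode subunits of mTORC1 and of the TSC complex, and all 4 were lower in limma's test. The 250 bases before each of their starts are shown. They were taken from RefSeq on GRCm38.p6, run from 5′ to 3′ on the strand of the gene, and have in capitals each match to CCGGAA, the core recognised by ETS factors, on either strand.
*Mtor* (chr4:148448332-148448581, plus strand): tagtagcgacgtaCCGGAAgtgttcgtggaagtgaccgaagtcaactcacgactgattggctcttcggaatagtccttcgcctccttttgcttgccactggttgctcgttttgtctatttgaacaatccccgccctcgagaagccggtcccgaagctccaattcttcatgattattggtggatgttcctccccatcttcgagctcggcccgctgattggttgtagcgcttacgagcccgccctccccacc
*Rptor* (chr11:119602655-119602904, plus strand): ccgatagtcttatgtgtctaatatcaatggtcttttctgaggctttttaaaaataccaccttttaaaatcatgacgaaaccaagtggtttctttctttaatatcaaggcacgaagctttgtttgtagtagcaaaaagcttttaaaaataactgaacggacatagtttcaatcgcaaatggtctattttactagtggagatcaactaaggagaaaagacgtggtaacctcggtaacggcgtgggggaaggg
*Tsc1* (chr2:28640983-28641232, plus strand): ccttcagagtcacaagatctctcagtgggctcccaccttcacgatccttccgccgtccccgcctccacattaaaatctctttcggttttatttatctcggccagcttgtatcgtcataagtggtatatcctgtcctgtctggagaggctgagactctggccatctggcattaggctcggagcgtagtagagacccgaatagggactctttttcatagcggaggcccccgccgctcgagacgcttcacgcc
*Tsc2* (chr17:24632628-24632877, minus strand): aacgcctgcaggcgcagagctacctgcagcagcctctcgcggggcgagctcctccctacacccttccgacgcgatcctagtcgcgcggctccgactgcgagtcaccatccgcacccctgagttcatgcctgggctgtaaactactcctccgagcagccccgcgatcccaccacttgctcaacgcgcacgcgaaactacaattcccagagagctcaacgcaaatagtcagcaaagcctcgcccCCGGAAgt
*Mtor* and *Tsc2* each held 1 match, a motif that 12.0% of the 32851 promoter windows of that length hold, and *Rptor*, *Tsc1* and *Inpp5d* held none. None of these 5 windows held CAGCTG (E-box, in 13.0% of all windows), TGTGGT (RUNX, 14.0%) or GTAAACA (FOXO, 3.17%), on either strand. These are matches of letters, and no binding was measured. Whether the 4 genes share any control was not tested, and with GC and length adjusted for only *Tsc2* of the 4 was still called.

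Length and base composition moved with the result. Across 10241 genes, the log2 fold change was lower for longer and for more GC-rich transcripts, with a Spearman's rho of -0.30 with length and -0.33 with GC content, as a description across genes of the same 6 libraries. Of the 9 genes, 8 had a longest coding transcript above the median of 3003 nucleotides for the genes tested, from 4544 for *Akt2* to 8564 for *Mtor*, while *Akt1* had 2690. The GC content was above the median of 49.96% for 8 genes, from 51.7% for *Tsc1* to 59.7% for *Akt1*, while *Pik3r1* had 44.9%. With both adjusted for, the median log2 fold change of the 9 genes was -0.050 and that of all genes was 0.011. The 3 scalings compared moved the size of the change but not its sign. When all libraries were given the same FPKM total, the median of all genes moved to -0.45 and that of the 9 genes to -0.9995, beside 59.9% of all genes called lower, and with quantile normalization the median of the 9 genes was -0.51, beside 29.4% called lower, with *Akt1* at -0.70 and *Akt2* at -0.47. Under both scalings all 9 were lower at an adjusted p under 0.05.

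**Figure D2:**
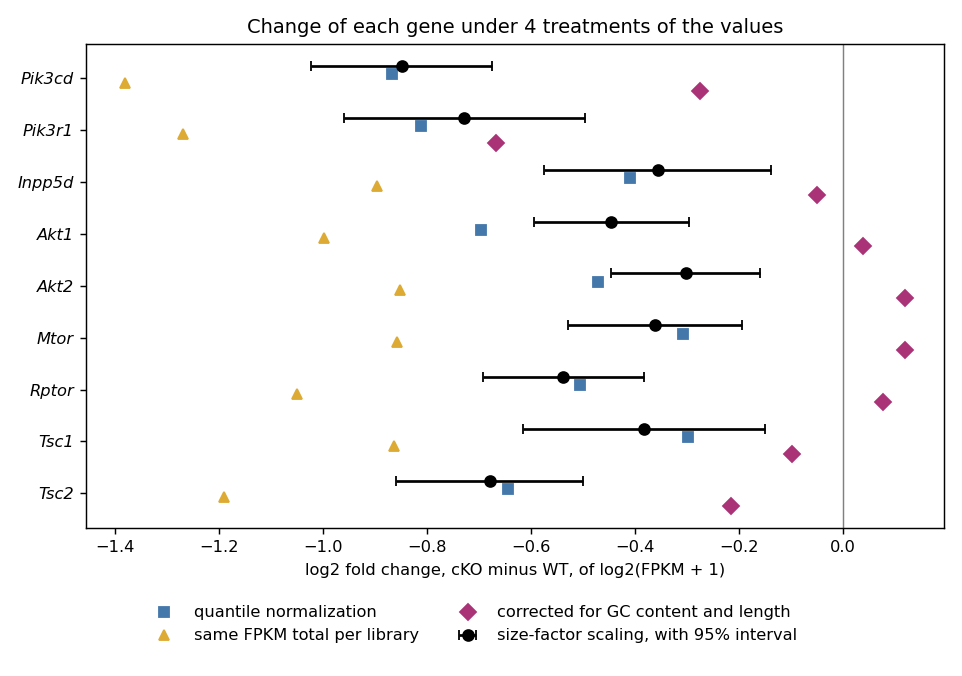
Log2 fold change (cKO minus WT, on the log2(FPKM + 1) scale) of the 9 genes with size-factor scaling (black, with limma's 95% confidence interval), quantile normalization (blue), the same FPKM total in each library (yellow) and an adjustment for GC and length (purple). Under the 3 scalings all 9 genes lie below 0, whereas under the adjustment *Akt1*, *Akt2*, *Mtor* and *Rptor* lie above 0 and *Pik3r1* is at -0.67.

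The order of the levels was nearly the same in the 2 genotypes. In WT it ran, by mean FPKM, from *Akt1* (80.2) over *Akt2* (51.8), *Pik3r1* (37.4), *Inpp5d* (27.7), *Pik3cd* (26.5), *Tsc2* (14.0), *Rptor* (13.2) and *Mtor* (9.13) to *Tsc1* (7.42), and no 2 neighbours overlapped. In cKO the means were 58.7 ± 2.01 for *Akt1*, 41.9 ± 1.75 for *Akt2*, 22.3 ± 3.26 for *Pik3r1*, 21.5 ± 2.57 for *Inpp5d*, 14.3 ± 1.23 for *Pik3cd*, 8.79 ± 0.423 for *Rptor*, 8.40 ± 0.713 for *Tsc2*, 6.89 ± 0.487 for *Mtor* and 5.49 ± 0.801 for *Tsc1* (SD, n = 3 each). The ranges of *Pik3r1* and *Inpp5d*, of *Rptor* and *Tsc2* and of *Mtor* and *Tsc1* overlapped there. Among the cKO libraries, replicate 1 was highest for *Inpp5d*, *Akt1*, *Rptor* and *Tsc2*, replicate 2 for *Pik3cd*, *Pik3r1*, *Mtor* and *Tsc1*, and replicate 3 for *Akt2*, so that no single library was highest throughout.

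Ratios between 2 genes of the same library do not change when all values of the library are multiplied by 1 factor, and 6 pairs were compared by their roles. In all 6 the cKO ratios lay on one side of the WT ratios, and each had p = 0.1 in an exact two-sided permutation test, which is the smallest p that 3 libraries against 3 allow (adjusted p = 0.1 over the 6 pairs). None could therefore pass 0.05. The ratio of *Pik3cd* to the phosphatase gene *Inpp5d* was 0.959, 0.979 and 0.925 in WT and 0.582, 0.802 and 0.629 in cKO, a log2 difference of -0.52 ± 0.14 (SE). The ratio of *Mtor* to *Tsc2*, a gene that restrains mTORC1, was 0.657, 0.644 and 0.651 in WT and 0.768, 0.870 and 0.830 in cKO, a log2 difference of 0.34 ± 0.053 (SE). The *Tsc1* to *Tsc2* ratio was 0.562, 0.509 and 0.516 in WT and 0.577, 0.757 and 0.630 in cKO, so that cKO replicate 1 lay just above WT replicate 1. For the *Akt1* to *Akt2* ratio, which averaged 1.55 for WT and 1.40 ± 0.109 (SD, n = 3) for cKO, replicate 1 of cKO at 1.53 was likewise at the edge of the WT range. The *Mtor* to *Rptor* ratio averaged 0.691 for WT and 0.785 ± 0.0743 (SD, n = 3) for cKO. The *Pik3cd* to *Pik3r1* ratio averaged 0.707 for WT and 0.643 ± 0.0421 (SD, n = 3) for cKO. When GC and length were adjusted for, its log2 difference turned from -0.14 to 0.39, while that of *Mtor* to *Tsc2* was 0.33, both with p = 0.1 in the exact permutation test. In the other 4 pairs the groups were then no longer apart. There the log2 difference went from -0.52 to -0.23 for *Pik3cd* to *Inpp5d* (exact permutation p = 0.3), from 0.30 to 0.12 for *Tsc1* to *Tsc2* (exact permutation p = 0.6), from 0.18 to 0.042 for *Mtor* to *Rptor* (exact permutation p = 1.0) and from -0.14 to -0.082 for *Akt1* to *Akt2* (exact permutation p = 0.2). Under quantile normalization, which is not a single factor per library, *Pik3cd* to *Pik3r1* went to -0.072 (exact permutation p = 0.4) and *Akt1* to *Akt2* to -0.23. Without cKO replicate 2, the log2 differences were 0.10 for *Mtor* to *Rptor*, -0.087 for *Pik3cd* to *Pik3r1* and 0.19 for *Tsc1* to *Tsc2*.

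**Figure D3:**
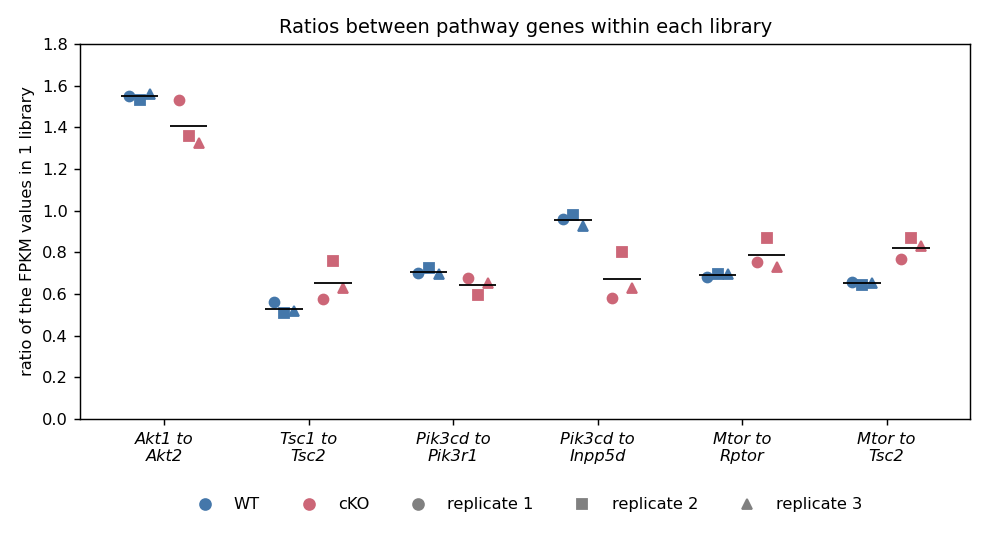
Ratio of the FPKM values of 2 pathway genes in each WT (blue) and cKO (red) library, with the marker giving the replicate number and lines the means of 3 libraries. The *Pik3cd* to *Inpp5d* ratio shows the widest gap, from 0.954 to 0.671 on average, while for *Akt1* to *Akt2* and *Tsc1* to *Tsc2* 1 cKO library lies next to the WT range.

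Beyond the 9 genes, 94 further genes of the pathway were listed in 9 groups by role, of which 82 passed the filter on low values. At an adjusted p under 0.05 from limma, 19 of the 82 rose and 30 fell in cKO, or 23.2% and 36.6% of them, beside 35.8% and 29.8% of all genes tested, with a median log2 fold change of -0.12. With WT taken as 1 sample, 1 was higher and 7 lower (7.21% and 8.73% of all genes), and with the same FPKM total in each library 3 were higher and 62 lower (8.74% and 59.9% of all genes). Adjusted for GC and length, 16 were higher and 21 lower, or 19.5% and 25.6%, beside 29.9% and 26.7% of all genes. These shares of all genes are the background for the counts of each group below, and no group was tested against them. The 8 genes called with WT taken as 1 sample were *Pik3r2*, *Irs2*, *Pik3r5*, *Sec13*, *Rps6kb2*, *Gsk3a*, *Ulk1* and *Eif4ebp2*, and every other gene called and named below lost its call there.

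Of the 6 other catalytic subunits of PI3K, 2 were higher, 1 was lower and 3 did not pass. With the same FPKM total 4 were called, all lower, and with GC and length adjusted for 2 were called, both higher. *Pik3cg*, which encodes p110γ, the class I subunit activated through G protein-coupled receptors, rose from 20.8, 21.2 and 20.9 in WT to 37.0, 26.5 and 32.3 in cKO, or 0.57 ± 0.12 in log2 fold change (adjusted p = 0.00490), which was 0.028 under the same FPKM total. *Pik3c3*, which encodes the class III kinase VPS34, had a value of 0.33 in log2 fold change (adjusted p = 0.00349), which was -0.20 under the same FPKM total. *Pik3c2b*, of class II, fell on average from 2.59 FPKM to 1.30 ± 0.389 (SD, n = 3), or -0.66 in log2 fold change (adjusted p = 0.00415), a call that was lost at -0.19 (adjusted p = 0.216) with GC and length adjusted for. *Pik3ca* was at 20.1 to 20.4 in WT and 20.3 to 22.4 in cKO, and *Pik3cb* was at 1.88 to 2.05 in WT and 1.48 to 1.85 in cKO, and neither passed (adjusted p = 0.277 and 0.185). The differences between these subunits and *Pik3cd* were not tested.

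Of 7 tested regulatory subunits and adaptors of PI3K, 4 were lower and 1 was higher, with a median log2 fold change of -0.33. With the same FPKM total 6 were called and with GC and length adjusted for 2, all of them lower. *Pik3r2*, which encodes p85β, had an FPKM of 11.3, 11.2 and 11.4 in WT and of 5.95, 5.78 and 5.76 in cKO, or -0.85 ± 0.061 in log2 fold change (adjusted p = 0.000120), and -0.28 (adjusted p = 0.0120) with GC and length adjusted for. *Irs2*, which encodes an insulin receptor substrate, fell on average from 4.89 FPKM to 2.38 ± 0.289 (SD, n = 3), or -0.80 in log2 fold change (adjusted p = 0.000375), and its call was lost at -0.19 (adjusted p = 0.0614) under that adjustment. *Gab3*, an adaptor of the Gab family, had a value of 0.47 in log2 fold change (adjusted p = 0.0412), which went to 0.18 (adjusted p = 0.415) likewise. *Pik3r5*, which encodes the p101 partner of p110γ and is named here after its values were seen, had a value of -0.74 in log2 fold change (adjusted p = 0.000384), and of -0.25 (adjusted p = 0.0403) under the adjustment. *Pik3r3* was at 3.79 to 4.01 in WT and 2.84 to 4.51 in cKO and did not pass (adjusted p = 0.638).

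Among the phosphatases that oppose PI3K and AKT, 4 of 8 tested were lower and 2 higher. With the same FPKM total 7 were called, all lower, and with GC and length adjusted for 3 were higher and 2 lower. *Inpp4b* and *Inpp4a*, which encode 4-phosphatases, had log2 fold changes of -0.64 (adjusted p = 0.000375) and -0.82 (adjusted p = 0.00213). *Ppp2ca*, the catalytic subunit of PP2A, and *Inpp5k* had log2 fold changes of 0.40 and 0.22 (adjusted p = 0.00402 and 0.0151), both of which were negative under quantile normalization and under the same FPKM total. *Inppl1*, the SHIP-2 gene, was at or below 0.260 in every library and was not tested.

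Of 6 other tested subunits of the mTOR complexes, 1 was higher and 5 did not pass, although 5 were lower with the same FPKM total in each library and 2 were higher with GC and length adjusted for. The gene called higher was *Tti1*, which encodes a factor for the folding of mTOR and related kinases and rose on average from 9.44 FPKM to 15.7 ± 1.57 (SD, n = 3), or 0.67 in log2 fold change (adjusted p = 0.000686). In the group of the TSC complex, RHEB and *Ddit4*, 2 of 4 were higher and 2 lower, and 1 was higher and 2 lower both under the same FPKM total and under the adjustment for GC and length. *Tbc1d7*, the third subunit of the TSC complex, went from 3.50, 3.97 and 3.03 in WT to 10.7, 6.40 and 12.3 in cKO, or 1.22 ± 0.22 in log2 fold change (adjusted p = 0.00233), opposite to *Tsc1* and *Tsc2*. *Rheb*, the GTPase that the TSC complex inhibits, had a value of 0.44 in log2 fold change (adjusted p = 0.00310), which was -0.11 under the same FPKM total and lost its call at 0.10 (adjusted p = 0.231) with GC and length adjusted for. *Ddit4*, a stress-induced inhibitor of mTORC1, fell from 82.1, 83.1 and 83.2 to 35.1, 58.1 and 36.6, or -0.96 ± 0.18 in log2 fold change (adjusted p = 0.00276), and *Rhebl1* had -0.41 (adjusted p = 0.0157), which was -0.67 with GC and length adjusted for.

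In the amino acid sensing branch, 8 of 22 tested genes were higher and 3 lower, beside 35.8% and 29.8% of all genes. With the same FPKM total 1 was higher and 12 lower (8.74% and 59.9% of all genes). With GC and length adjusted for 5 were higher and 4 lower (29.9% and 26.7% of all genes). *Sec13*, a GATOR2 subunit that is also part of the COPII coat and the nuclear pore, rose on average from 67.8 FPKM to 125 ± 15.8 (SD, n = 3), or 0.87 in log2 fold change (adjusted p = 0.000420), and *Lamtor4* of the Ragulator had 0.72 (adjusted p = 0.00105), values that were 0.54 and 0.48 under that adjustment. *Flcn*, which encodes folliculin, and *Sesn2*, a leucine sensor, had log2 fold changes of -0.51 (adjusted p = 0.000722) and -0.61 (adjusted p = 0.00237). Adjusted for GC and length, *Flcn* was at -0.24 (adjusted p = 0.0243), and *Sesn2* lost its call at -0.067 (adjusted p = 0.582). Of 8 genes of AMPK and LKB1, the energy sensor that restrains mTORC1 and its upstream kinase, 4 were lower and 1 was higher, with 7 called, all lower, under the same FPKM total, and 2 higher and 3 lower with GC and length adjusted for. *Stk11*, the LKB1 gene, fell on average from 67.0 FPKM to 55.9 ± 2.07 (SD, n = 3), or -0.26 in log2 fold change (adjusted p = 0.00762), but had 0.21 (adjusted p = 0.0213) with GC and length adjusted for. *Prkag2* had a value of -0.50 in log2 fold change (adjusted p = 0.0126), and *Cab39* had 0.33 (adjusted p = 0.00246), with negative values under quantile normalization and the same FPKM total.

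Of 19 tested genes whose products are substrates or targets of AKT and mTOR, 12 were lower and 2 higher. The shares of all genes were 29.8% and 35.8%, and the median log2 fold change of the 19 was -0.35. With GC and length adjusted for 8 were lower and 1 higher (26.7% and 29.9% of all genes). With WT taken as 1 sample 4 were called, all lower. With the same FPKM total 1 was higher and 17 lower (8.74% and 59.9% of all genes). *Rps6kb2*, which encodes S6 kinase 2, fell from 23.2, 23.5 and 24.1 in WT to 8.76, 10.7 and 6.96 in cKO, or -1.35 ± 0.13 in log2 fold change (adjusted p = 0.000264). *Gsk3a*, which encodes a kinase that AKT inhibits, fell from 83.2, 82.6 and 81.9 to 40.9, 46.5 and 46.9, or -0.87 ± 0.072 in log2 fold change (adjusted p = 0.000162). Adjusted for GC and length, *Rps6kb2* was at -0.89 and *Gsk3a* at -0.46, and both were still called. *Bad*, the pro-apoptotic BCL-2 family gene whose product AKT phosphorylates, rose from 27.9, 26.5 and 25.9 to 57.8, 37.6 and 62.0, or 0.91 ± 0.18 in log2 fold change (adjusted p = 0.00376), and *Eif4ebp1*, a translation repressor that mTORC1 inactivates, had 0.37 (adjusted p = 0.0143), which was -0.10 under the same FPKM total and lost its call at 0.13 (adjusted p = 0.285) with GC and length adjusted for. Chosen after their values were seen, *Ulk1*, the autophagy kinase that mTORC1 inhibits, and *Eif4ebp2* had log2 fold changes of -1.12 and -0.94 (adjusted p = 0.000595 and 0.000471), and of -0.48 and -0.68 under the adjustment (adjusted p = 0.0155 and 0.00159). The FOXO genes *Foxo1*, *Foxo3* and *Foxo4*, likewise chosen after their values were seen, encode transcription factors that AKT keeps out of the nucleus and had -0.61, -0.46 and -0.66 (adjusted p = 0.00103, 0.00857 and 0.00106). All 3 calls were lost with WT taken as 1 sample (adjusted p = 0.0609, 0.143 and 0.0602), and with GC and length adjusted for *Foxo1* was at -0.38 (adjusted p = 0.00702), *Foxo4* at -0.36 (adjusted p = 0.0214) and *Foxo3*, no longer called, at -0.10 (adjusted p = 0.346).

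**Figure D4:**
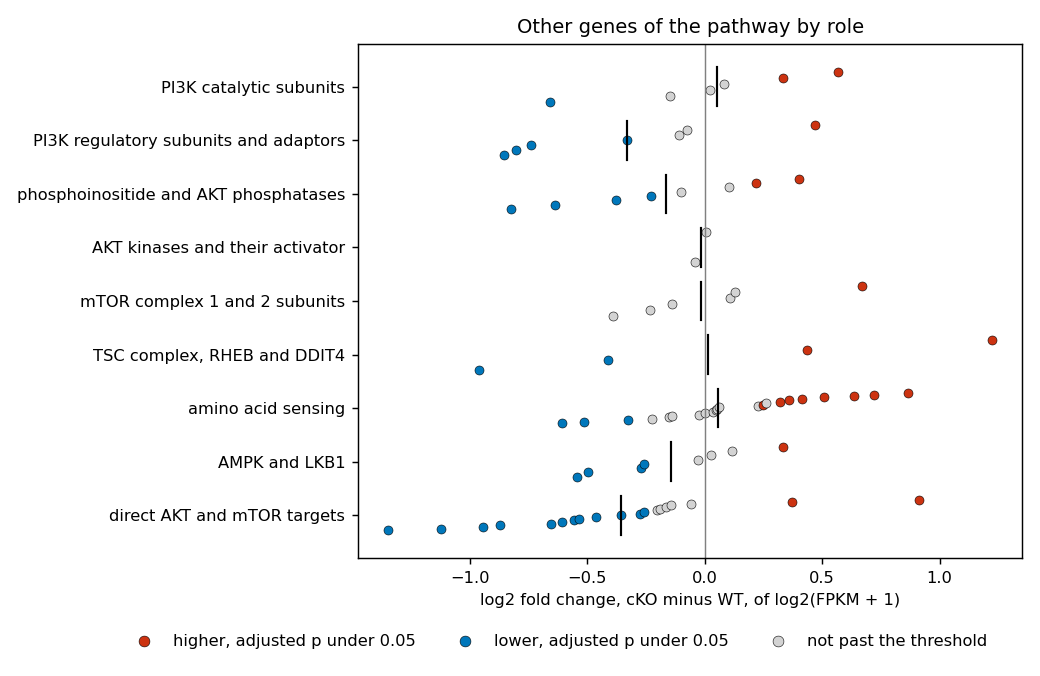
Log2 fold change (cKO minus WT, on the log2(FPKM + 1) scale, size-factor scaling) of the 82 other tested genes of the pathway, 1 point each, in rows by role, with the median of each row as a black line. Red and blue points are higher and lower at an adjusted p under 0.05 and grey points did not pass. Of 19 direct targets 12 are blue, beside 29.8% of all genes called lower. The count was 17 with the same FPKM total in each library, beside 59.9% of all genes. It was 8 with GC and length adjusted for, beside 26.7% of all genes.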

How the data were processed

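Total RNA of sorted DP thymocytes was made into poly(A)-enriched directional libraries and sequenced as paired-end reads on an Illumina instrument. The authors trimmed the reads with fastx trimmer, aligned them to mm10 with TopHat and deposited the Cufflinks FPKM values, as a value per gene symbol in each of the 6 libraries. Tool versions, annotation and strand setting are not given in the sources used here. The authors' own DESeq2 test needs read counts, so FPKM was tested on a log scale.

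From these values, median-of-ratios size factors were applied, and log2(FPKM + 1) was fitted by genotype with limma 3.58.1 (R 4.3.3; lmFit, eBayes with trend) for the 10326 genes that reached 1 FPKM in 3 or more libraries, with Benjamini-Hochberg adjustment over all of them at 0.05. A fold change on the log2(FPKM + 1) scale understates the change of low genes. Ratios were tested in Python 3.11.15 with scipy 1.17.1. Depth was estimated from 2521 genes with a single coding transcript longer than 1000 nucleotides, assuming fragments of 200 nucleotides. At those depths, 69.2% to 76.5% of the values under 6.5 fragments lay within 0.1 of a whole number. Gene positions, lengths and GC content came from GENCODE vM21 (GRCm38), using the longest coding transcript, and the correction used natural splines with 5 degrees of freedom for each property in each library. Alternatives were the pseudocount, the filter, the scaling, the trend, the replicate block, the WT libraries as 1 sample, that correction and each library left out. On simulated data for 10326 genes, the fit called 86 of 100 genes changed by 1 on the log2 scale, 98 of 100 changed by 2 and 10 of 10126 unchanged genes. These counts hold only for the spread that was simulated. They do not give the error rate in these libraries, whose spread differed between the genotypes and may be technical in WT.

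The members, gene lists and tests were chosen with earlier results of these data known. Named genes were the members, *Nsrp1*, in each list up to 2 genes in each direction with the smallest adjusted p among those without overlap between the groups, paralogues of members, and the 3 genes nearest in profile to the 2 members with the smallest adjusted p. Some genes of these lists are not reported here.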

Additional observations from a re-analysis of the deposited data

How the results depend on the processing

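The count of 9 members called lower was also 9 with a pseudocount of 0.1, no filter, no scaling, quantile normalization, the same FPKM total and no trend. It was 2 when WT was taken as 1 sample, when 8 of the wider pathway genes and 1645 of all genes were called in place of 49 and 6766, and 3 with the adjustment for GC and length. Under that adjustment the log2 fold changes turned to 0.038 for *Akt1*, 0.12 for *Akt2*, 0.12 for *Mtor* and 0.077 for *Rptor*, and the log2 difference of the *Pik3cd* to *Pik3r1* ratio turned to 0.39. The cause of these moves was not tested. With each library left out in turn, 8 to 9 members, 36 to 54 wider pathway genes and 5404 to 7637 of all genes were called, and the member lost was *Tsc1*, without WT replicate 1. With the replicate number as a block, 9 members, 45 wider pathway genes and 6467 of all genes were called. Same-numbered WT and cKO libraries did not deviate together, with correlations of -0.022, 0.039 and 0.031 over 10326 genes, and the labels state no pairing. The members rested on 515 or more estimated fragments in each library, and the part of depth in the results was not tested.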
